A study of Mus musculus with 10 samples.

Results

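The genes described here mark the stages of neutrophil maturation, from dividing progenitors to the cells that leave the marrow or liver for the blood. The list names 31 genes by their role, and 30 of them were measured by a probe set with exactly 1 gene symbol, of 22180 genes measured in all. They fall into 7 progenitor and primary granule genes, 8 secondary and tertiary granule genes, and 15 measured of 16 listed genes of mature neutrophils. Fpr1 was not analysed here. The values come from portal tracts, the regions of the liver that hold a bile duct beside branches of the portal vein and hepatic artery, cut by laser from frozen liver sections of mice aged 1 week, with 12 to 20 tracts per replicate. The 5 control replicates carry the strain label C57Bl/6J and the genotype label control, with no further allele named. The 5 other replicates carry the genotype label Jag1+/-Rfng+/-, which denotes 1 mutant allele each of Jag1, a ligand of the Notch receptors, and of Rfng, a fringe glycosyltransferase that modifies Notch, and their labels give no strain. The labels do not tell whether replicates are different mice, and the p-values below then cover only the spread among these samples, which may be technical.

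Neutrophils store their weapons in granules that are made in sequence. Promyelocytes make primary granules, filled with myeloperoxidase and the serine proteases elastase, proteinase 3 and cathepsin G, and the transcripts of these proteins are lost as the cells mature. Myelocytes and metamyelocytes make the secondary and tertiary granules, with lactoferrin and cathelicidin, and mature cells gain the receptors, integrins and oxidase subunits of the circulating neutrophil. The fetal liver is a site of blood formation, with granulocytic cells often found around portal tracts, and this activity declines after birth. The design of the series compares remodelling and differentiation in the tracts of the 2 genotypes, and the comparison below sets the early genes against the late ones.

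Each value is a log2 expression value of 1 probe set on 1 single-colour array, so a difference of 1 is a doubling, and differences are Jag1+/-Rfng+/- minus control. Arrays have no read depth, and their number limits the precision. Array medians lay between 3.22 and 3.30 and correlations between arrays between 0.956 and 0.987. Jag1+/-Rfng+/- replicate 5, whose sample name ends in excl with no meaning given, had the lowest, 0.956 to 0.963 with the other 9, which correlated at 0.969 or more with each other. Jag1 was lower by 1.33 ± 0.42 (SE; limma adjusted p = 0.559), with overlapping groups. Rfng was lower by 0.46 ± 0.12 (SE; limma adjusted p = 0.416), with every mutant value below every control, as in 0.766% of all genes. With no detection calls at hand, the values of 1088 olfactory receptor genes, which liver is not known to use, served as an absent level, with a 95th percentile of 3.19. By that level 24 of the 30 genes stood above it on all 10 arrays, 4 on some (Gfi1 on 3, Stfa2 on 5, Ly6g and Il1b on 9 each) and 2, Padi4 and Trem1, on none.

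The early granule genes lay higher in Jag1+/-Rfng+/- tracts, with a median difference of 0.65 over the 7 early genes and of 0.11 over the 23 late ones, but no single difference passed the adjusted test. Ctsg, Prtn3, Elane and Mpo, which encode the primary granule proteases cathepsin G, proteinase 3 and neutrophil elastase and the myeloperoxidase beside them, differed by 1.31, 0.82, 0.80 and 0.65, that is 2.48-fold, 1.77-fold, 1.74-fold and 1.57-fold. None of the 30 genes passed an adjusted p of 0.05 (limma, Benjamini-Hochberg over all genes tested; 0.00902% of all genes, 2 of them, did, and 0.00451% were higher), while 6 of the 30 had an unadjusted p under 0.05, all higher (2.98% of all genes were higher at that p and 3.79% lower). At a looser threshold, an unadjusted p under 0.05 with a difference of at least 1.5-fold, 4 of the 30 were higher and 0 lower, against a background of 0.446% of all genes higher and 1.05% lower. All 4 are primary granule genes, so 4 of 7 early genes passed and 0 of 23 late genes did. That count was 2, Prtn3 and Ctsg, without control replicate 3, 4 or 5 or without Jag1+/-Rfng+/- replicate 3 or 4. In 1 of 19 alternatives each, a late gene passed it too, Lcn2 at 0.60 without control replicate 1 and Retnlg at -0.65 among the 7 arrays that share a number in their sample names. In laser-cut tissue a larger number of early neutrophil cells and more of this RNA in each cell cannot be told apart.

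The promoters of these 4 granule genes and of Ms4a3, whose product marks granulocyte-monocyte progenitors, are printed because these are the 5 early genes with an unadjusted p under 0.05. The sequences are the 250 bases before each start site in RefSeq (GRCm38.p6), 5′ to 3′ on the gene's strand, and capitals mark GAGGAA on either strand, the core bound by the myeloid factor PU.1.
Mpo (chr11:87793534-87793783, plus strand): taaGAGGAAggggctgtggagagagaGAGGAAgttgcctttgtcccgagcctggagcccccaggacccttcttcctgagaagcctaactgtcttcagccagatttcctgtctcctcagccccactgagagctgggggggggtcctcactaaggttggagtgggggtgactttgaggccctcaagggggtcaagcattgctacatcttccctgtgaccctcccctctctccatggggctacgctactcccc
Elane (chr10:79886062-79886311, plus strand): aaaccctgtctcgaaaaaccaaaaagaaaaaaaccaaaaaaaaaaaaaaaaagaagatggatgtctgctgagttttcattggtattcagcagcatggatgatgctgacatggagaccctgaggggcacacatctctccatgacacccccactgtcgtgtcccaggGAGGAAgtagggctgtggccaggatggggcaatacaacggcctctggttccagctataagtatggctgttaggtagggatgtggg
Prtn3 (chr10:79879417-79879666, plus strand): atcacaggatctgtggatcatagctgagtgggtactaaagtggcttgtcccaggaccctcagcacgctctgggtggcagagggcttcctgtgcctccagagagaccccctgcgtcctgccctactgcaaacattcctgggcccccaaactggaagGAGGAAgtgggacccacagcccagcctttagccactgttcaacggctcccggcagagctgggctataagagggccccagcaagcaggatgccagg
Ctsg (chr14:56102575-56102824, minus strand): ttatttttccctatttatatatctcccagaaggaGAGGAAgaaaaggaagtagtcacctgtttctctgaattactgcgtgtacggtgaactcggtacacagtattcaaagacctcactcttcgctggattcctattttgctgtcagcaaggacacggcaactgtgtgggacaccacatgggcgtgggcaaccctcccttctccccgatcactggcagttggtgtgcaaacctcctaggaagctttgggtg
Ms4a3 (chr19:11640852-11641101, minus strand): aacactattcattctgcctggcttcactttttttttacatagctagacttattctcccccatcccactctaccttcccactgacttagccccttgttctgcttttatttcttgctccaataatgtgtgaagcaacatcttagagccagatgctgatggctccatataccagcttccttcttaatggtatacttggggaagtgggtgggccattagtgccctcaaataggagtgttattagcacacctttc

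Elane and Prtn3 lie beside each other on chromosome 10, in the same direction. The PU.1 core stands in Mpo at -247 to -242 and -224 to -219 relative to the start site, in Elane at -85 to -80, in Prtn3 at -95 to -90 and in Ctsg at -216 to -211, and these letters are not in the Ms4a3 window. Of the genes described here, 27 have an entry in the promoter table. By class, 4 of 6 early, 4 of 8 secondary granule and 8 of 13 mature genes hold the core, against 23.3% of 32851 promoters. The C/EBP site TTGCNNAA, for the factors that drive granule genes, stands in 1 of 6 early (Gfi1), 4 of 8 secondary granule (Fcnb, Lcn2, Ltf and Ngp) and 4 of 13 mature genes, against 9.56% of all. The short MYB core AACNG is in 5 of 6, 8 of 8 and 13 of 13, against 74.2%. The RUNX core TGTGGT (14.0% of all) was in 1, 0 and 2 of them, the GFI1 core AATCA (33.7%) in 0, 2 and 3, and TATAAA (12.4%) in 1, 1 and 6. All motifs were searched on both strands. A gene counts if any of its windows matches (Gfi1 and Ly6g have more than 1), while the shares of all are per promoter. A match is a description of these letters, not a site that was measured.

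Ctsg, the cathepsin G gene on chromosome 14, had values of 5.67, 4.84, 4.87, 5.89 and 4.21 in control replicates 1 to 5 and of 6.05, 6.03, 7.54, 6.30 and 6.10 in Jag1+/-Rfng+/- replicates 1 to 5. Every mutant array lay above every control array, which 0.618% of all genes also did, and mutant replicate 3 stood well above the other 4. Its difference was 1.31 ± 0.35 (SE; 95% interval 0.54 to 2.08; limma adjusted p = 0.433; exact permutation test, two-sided, p = 0.00794, the smallest that 5 against 5 can give).

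Mpo, on chromosome 11, had control values of 7.10, 7.42, 6.96, 6.80 and 6.84 and mutant values of 6.66, 7.85, 8.45, 7.82 and 7.61. Mutant replicates 2 to 5 lay above all controls, and mutant replicate 1 lay below all of them. The difference was 0.65 ± 0.27 (SE; 95% interval 0.07 to 1.23; limma adjusted p = 0.685; exact permutation test p = 0.0794).

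Elane had control values of 5.79, 5.77, 5.29, 5.24 and 4.96 and mutant values of 4.95, 5.86, 6.76, 6.38 and 7.10. The order of the mutant arrays differed from that in Mpo at the top, with replicate 5 highest, but replicate 1 was again the lowest of all 10 arrays. The difference was 0.80 ± 0.34 (SE; limma adjusted p = 0.702; exact permutation test p = 0.0952).

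Prtn3, its neighbour on the chromosome, had control values of 4.44, 4.70, 3.87, 4.60 and 4.69 and mutant values of 4.27, 4.90, 5.49, 5.80 and 5.96. Mutant replicate 1 lay within the control range and the other 4 lay above it. The difference was 0.82 ± 0.29 (SE; 95% interval 0.18 to 1.47; limma adjusted p = 0.618; exact permutation test p = 0.0635).

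Ms4a3, a membrane protein gene of granulocyte-monocyte progenitors, had control values of 3.98, 3.87, 3.72, 3.84 and 3.70 and mutant values of 3.72, 4.19, 4.39, 4.27 and 4.44. The same 4 mutant arrays lay above all controls, with a smaller difference of 0.38 ± 0.14 (SE; 1.30-fold; limma adjusted p = 0.618; exact permutation test p = 0.0397). In these 5 genes at least 4 mutant arrays lay above all controls, as in 3.05% of all genes, and in none of the 23 late genes did they.

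**Figure D1:**
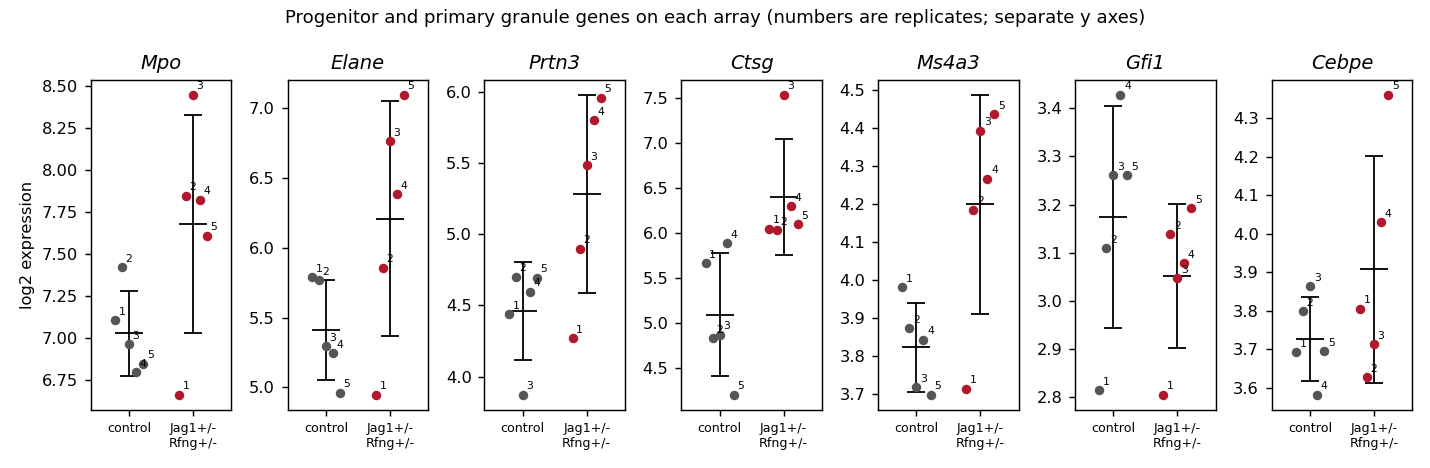
Log2 expression (vertical axis) of the 7 progenitor and primary granule genes in 5 control and 5 Jag1+/-Rfng+/- samples, with a point per array and bars for the mean and SD. In Mpo, Elane, Prtn3 and Ms4a3 mutant replicates 2 to 5 lie above all controls and replicate 1 does not, while in Ctsg all 5 do.

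The 2 early transcription factors did not show this pattern. Gfi1, a repressor needed for neutrophil commitment, had a mean of 3.18 ± 0.23 in controls and 3.05 ± 0.15 in mutants (SD, n = 5 each), near the absent level, with a difference of -0.12 ± 0.13 (SE). Cebpe, which drives the step to secondary granules, had control values of 3.69, 3.80, 3.86, 3.58 and 3.69 and mutant values of 3.80, 3.63, 3.71, 4.03 and 4.36. Only mutant replicates 4 and 5 exceeded the controls, and its difference was 0.18 ± 0.14 (SE; limma adjusted p = 0.848).

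Mutant replicate 1 and the sample names bear on these values. Without that replicate the differences of Mpo, Elane, Prtn3, Ctsg and Ms4a3 were 0.91, 1.11, 1.08, 1.40 and 0.50, with limma adjusted p from 0.343 to 0.501. Without replicate 5, whose name ends in excl, they were 0.67, 0.58, 0.65, 1.39 and 0.32, with limma adjusted p from 0.467 to 0.847. The sample names also carry a number, with no meaning given, and 1 of the 4 numbers is found in both groups. Among its 7 arrays, 3 control and 4 Jag1+/-Rfng+/-, the differences were 0.87, 1.09, 1.15, 1.29 and 0.51. Limma adjusted p ran from 0.707 to 0.823 there. These 5 genes lay higher in all 3 settings. They were picked by their unadjusted p on these same arrays, so refits of parts of them give no separate support. The 7 arrays also leave out mutant replicate 1, so the settings overlap.

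The secondary and tertiary granule genes showed small differences that were within the spread of the arrays. Their median difference was 0.26, with 7 higher and 1 lower, against a median of -0.01 and 48.5% higher over all genes, and 0 of 8 had an unadjusted p under 0.05 (limma). Ltf, the lactoferrin gene, differed by 0.33 ± 0.35 (SE), Ngp, neutrophilic granule protein, by 0.19 ± 0.24, and Cd177, a surface and granule glycoprotein, by 0.12 ± 0.18. Chil3, a chitinase-like lectin, differed by 0.11 ± 0.37, and Fcnb, ficolin B, by 0.32 ± 0.45.

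Camp, which encodes the antimicrobial peptide cathelicidin, had control values of 8.85, 9.53, 9.72, 8.13 and 7.73 and mutant values of 8.79, 7.83, 9.03, 9.37 and 8.74. The groups overlapped throughout, and the difference was -0.04 ± 0.39 (SE; 95% interval -0.89 to 0.81; limma adjusted p = 0.991). Control replicate 5 gave the lowest value and control replicate 3 the highest.

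Lcn2, which encodes the iron-siderophore binding protein lipocalin 2 and is also made by stressed hepatocytes, had control values of 9.13, 8.67, 8.71, 8.10 and 7.81 and mutant values of 8.91, 8.61, 9.05, 9.28 and 8.77. Pglyrp1, a peptidoglycan-binding protein, had control values of 7.73, 7.57, 8.07, 5.86 and 6.59 and mutant values of 7.76, 6.83, 8.03, 7.69 and 8.21. Their differences of 0.44 ± 0.23 and 0.54 ± 0.39 (SE) were the largest of the class over all 10 arrays (limma adjusted p = 0.757 and 0.844). Without control replicate 4 that of Pglyrp1 was 0.21, and Fcnb, at 0.36, was the largest, as it was at 0.67 without mutant replicate 1. In Lcn2 and Pglyrp1, control replicates 4 and 5 were the lowest of all 10 arrays, and they were also the lowest controls in Ltf, Camp, Ngp and Cd177.

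**Figure D2:**
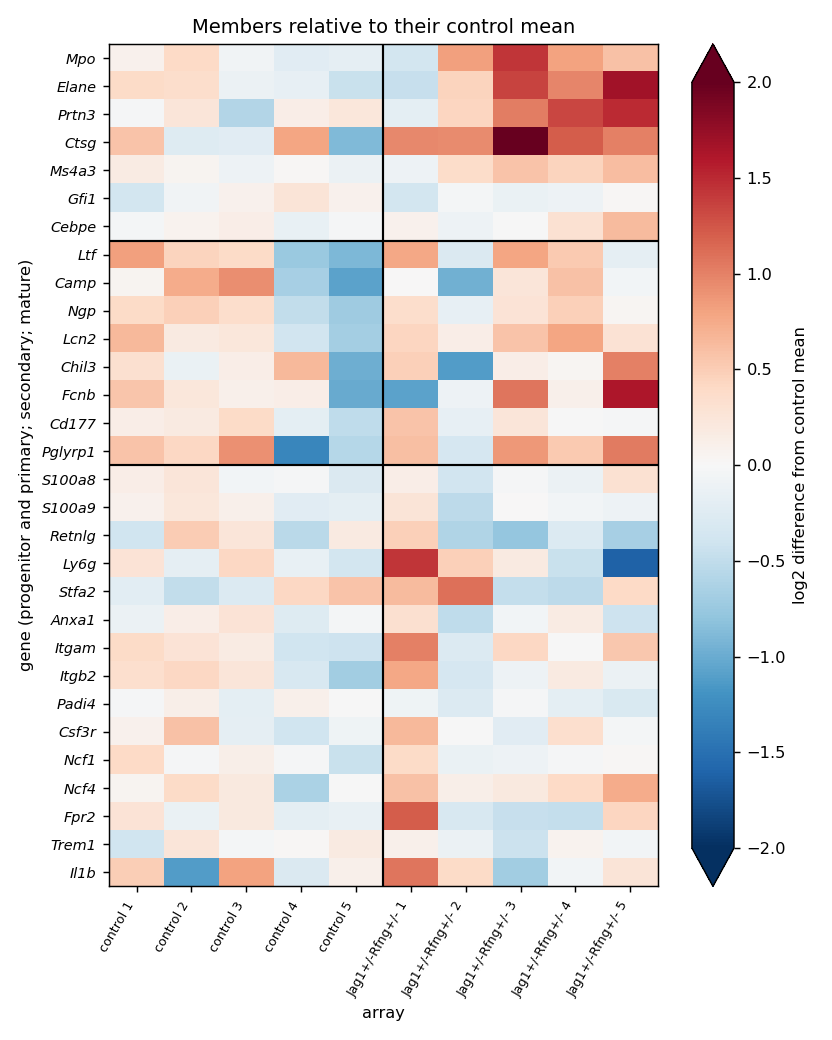
Difference of each of the 30 genes on each of the 10 arrays from the mean of the 5 controls (colour, log2), with genes in rows by class and arrays in columns. Of the 8 secondary granule genes, 2 lie above the control mean on control replicate 4 (Chil3 and Fcnb) and 0 on control replicate 5. Primary granule genes are high on mutant replicates 2 to 5, apart from Gfi1 and Cebpe, and 14 of 15 mature genes lie above the control mean on mutant replicate 1.

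The genes of mature neutrophils lay near 0. Their median difference was 0.03, with 9 higher and 6 lower. In limma 1 of 15, Ncf4, had an unadjusted p under 0.05, against 6.76% of all genes in either direction. S100a8 and S100a9 encode the subunits of calprotectin, an abundant cytosolic protein of neutrophils. S100a8 had control values of 10.37, 10.48, 10.18, 10.22 and 9.95 and mutant values of 10.37, 9.86, 10.21, 10.12 and 10.55. The groups overlapped fully, and the difference was -0.02 ± 0.14 (SE; 95% interval -0.33 to 0.29; limma adjusted p = 0.989). S100a9 differed by -0.08 ± 0.15 (95% interval -0.41 to 0.24).

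The adhesion and receptor genes varied more between arrays than between groups. Itgam and Itgb2, the chains of the Mac-1 integrin, differed by 0.34 ± 0.24 and 0.08 ± 0.25 (SE), and Csf3r, the receptor of granulocyte colony-stimulating factor, by 0.14 ± 0.20. Fpr2, a receptor for formylated peptides, differed by 0.08 ± 0.29, with 6.77 on mutant replicate 1 and 5.08 to 5.98 on the other mutants. Ly6g, the surface marker of mouse neutrophils, had control values of 4.66, 4.21, 4.80, 4.24 and 4.01 and mutant values of 5.81, 4.85, 4.56, 3.94 and 2.77. Its mutant values ran from the highest to the lowest of all 10 arrays, with a difference of 0.00 ± 0.44 (SE; 95% interval -0.95 to 0.96). Trem1, an amplifier of myeloid activation, stayed within the absent level, at 2.90 ± 0.25 in controls and 2.81 ± 0.21 in mutants (SD, n = 5 each).

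Ncf4, which encodes the p40phox subunit of the oxidase, had control values of 4.48, 4.80, 4.61, 3.78 and 4.41 and mutant values of 5.00, 4.54, 4.61, 4.82 and 5.16. The groups overlapped, and the difference was 0.41 ± 0.19 (SE; limma p = 0.0496, adjusted p = 0.737; exact permutation test p = 0.0714). Ncf1, which encodes the p47phox subunit, differed by 0.03 ± 0.16. Retnlg, a resistin-like gene of mature neutrophils, had control values of 5.42, 6.33, 6.07, 5.27 and 6.00 and mutant values of 6.30, 5.21, 5.05, 5.54 and 5.15. The lowest 3 arrays were mutants, and the difference was -0.37 ± 0.26 (limma adjusted p = 0.838).

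Of the remaining mature genes, Anxa1, which encodes the anti-inflammatory protein annexin A1, differed by -0.10 ± 0.17 (SE) and Il1b, interleukin 1 beta, by 0.19 ± 0.37. Stfa2, a stefin that inhibits cysteine proteases, differed by 0.23 ± 0.32. Padi4, which citrullinates histones in neutrophils, was within the absent level on all arrays, at 3.02 ± 0.12 in controls and 2.85 ± 0.12 in mutants (SD, n = 5 each; exact permutation test p = 0.0476, limma adjusted p = 0.777).

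**Figure D3:**
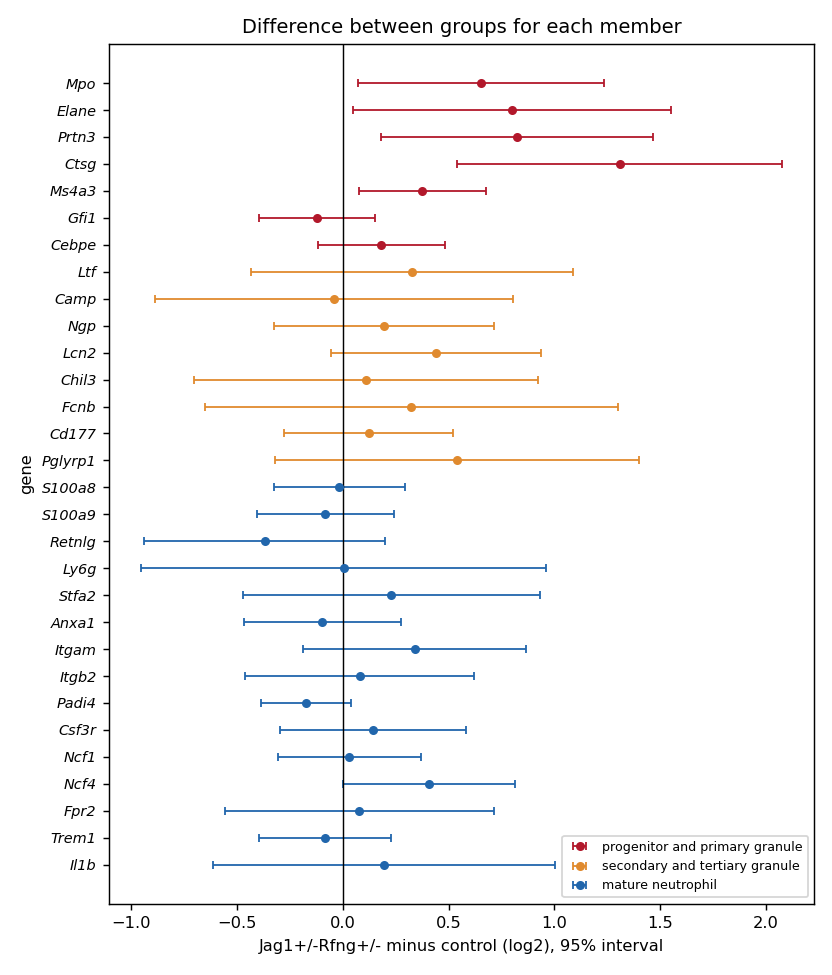
Difference in log2 expression (horizontal axis, Jag1+/-Rfng+/- minus control) of each of the 30 genes with its 95% interval from limma, coloured by class. The intervals of Ctsg, Prtn3, Elane, Mpo and Ms4a3 lie above 0, that of Ncf4 starts close to it, and those of the other 24 genes span it.

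Taken as the mean of each list per array, the early genes stood at 4.67 ± 0.15 in controls and 5.25 ± 0.41 in mutants (SD, n = 5 each), a mean difference of 0.57. The secondary granule genes stood at 7.36 ± 0.56 and 7.61 ± 0.36, and the mature genes at 5.49 ± 0.14 and 5.54 ± 0.31. The mean of the early genes minus that of the 23 late genes was -1.57, -1.51, -1.83, -1.12 and -1.31 in control replicates 1 to 5. It was -2.02, -0.87, -0.58, -0.85 and -0.74 in mutant replicates 1 to 5. Mutant replicates 2 to 5 thus lay above every control and replicate 1 below every control. The group means were -1.47 ± 0.27 and -1.01 ± 0.57, 0.46 apart, which is less than the mutants' SD. Without mutant replicate 1 they were 0.71 apart. No p-value is given for these means over chosen genes.

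Mutant replicate 1 differed from the other mutants in both directions. It is also the only mutant without the sample-name number that replicates 2 to 5 share, and array and number cannot be told apart here. Against the control mean the early list of replicate 1 lay at -0.07, where replicates 2 to 5 lay at 0.41, 0.95, 0.71 and 0.86. Its mature list lay at 0.60, where the others lay at -0.09, -0.17, -0.07 and -0.04. On that array 10 of 15 mature genes and 1 of 7 early genes exceeded every control. These counts have no background, since the share of all genes that did so on that array was not counted. The Kupffer cell and macrophage list stood at 7.38 on it, against 6.25 to 6.92 in controls, and the monocyte list at 7.10, against 6.38 to 6.56. The portal fibroblast list stood at 5.23 on it at 5.65 on replicate 3 and at 5.07 on replicate 5, against 5.98 to 7.03 in controls. The part of these cells in the neutrophil values was not tested.

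**Figure D4:**
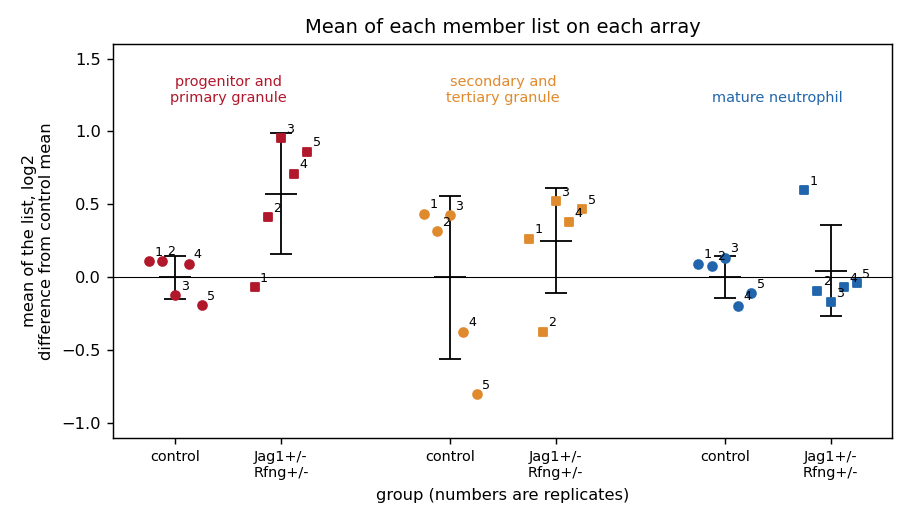
Mean of each list on each array as the log2 difference from the mean of the 5 controls (vertical axis), by group, with replicate numbers beside the points and bars for the mean and SD. Mutant replicate 1 is the lowest mutant in the early list, at -0.07, and the highest in the mature list, at 0.60.

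Across the 10 arrays Ms4a3 and the 3 protease genes had a higher Pearson's r with Mpo than any late gene did. Cebpe and Gfi1, the other early genes, did not, with r = 0.20 and -0.08. The order of the 4 genes above the late ones did not hold for Ctsg without 2 arrays. As deviations from the group means, it did not hold for Prtn3 and Ctsg. Mpo and S100a8 were chosen by role as anchors of the early and late classes, and each was correlated with the 22179 other genes. With Mpo, Ms4a3 had Pearson's r = 0.87 (rank 12) and Spearman's rho = 0.84 (permutation p = 0.00131 and 0.00372, adjusted p = 0.674 and 0.601), and r = 0.83 without the 2 arrays farthest from the median of Mpo. Elane followed at rank 31 with r = 0.83 and rho = 0.89 (permutation p = 0.00273 and 0.00118, adjusted p = 0.732 and 0.506). Prtn3 stood at rank 197 with r = 0.73 and rho = 0.76 (permutation p = 0.0198 and 0.0146, adjusted p = 0.757 and 0.684), and Ctsg at rank 396 with r = 0.67 and rho = 0.53 (permutation p = 0.0329 and 0.124, adjusted p = 0.778 and 0.775). Without the same 2 arrays r was 0.76, 0.70 and 0.61 for these 3, and the late genes Ncf4 and Lcn2 had 0.66 and 0.61. The permutation p-values over the 10 arrays include the difference between genotypes. As deviations from the group means, which takes that difference out, r was 0.80, 0.75, 0.56 and 0.43 for the 4 genes. It was 0.62 for the late gene Fcnb, whose r over all arrays was 0.61. No p-value was computed for the deviations. With Mpo the median r was 0.70 over the 6 other early genes and 0.29 over the secondary granule genes. Over the mature genes it was -0.28, and 2 of 15 were positive. Without the 2 arrays farthest from the median of Mpo, the mature genes ran from -0.62 (Padi4) to 0.66 (Ncf4). Csf3r, Itgb2, Ncf1 and Stfa2 changed from negative to positive there, at 0.56, 0.21, 0.04 and 0.04, and the other negative ones stayed negative. No gene passed the adjusted threshold for Mpo by permutation, and 1372 genes, 6.19%, had an unadjusted p under 0.05, among them 4 of the 29 other genes described here.

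With S100a8, Chil3 had r = 0.81 (rank 38) and rho = 0.70 (permutation p = 0.00483 and 0.0301, adjusted p = 0.988 and 1), and r = 0.57 without the 2 arrays farthest from the median of S100a8. Next came Itgam with r = 0.72 and rho = 0.72 (permutation p = 0.0206 and 0.0242) and S100a9 with r = 0.70 and rho = 0.53 (permutation p = 0.0252 and 0.123). The median r was 0.51 over the secondary granule genes, all 8 of them positive, 0.26 over the other mature genes and 0.11 over the early genes. Mpo and S100a8 themselves had r = -0.11 and rho = -0.22 (permutation p = 0.767 and 0.537). Again 0 genes passed by permutation. At an unadjusted p under 0.05 there were 988 genes, 4.45%, among them 3 of the 29 other genes described here. The 5 genes with the highest r were Lingo3, Serpina1b, Krtap4-9, Mrgprb2 and Sdr42e1 for Mpo, between 0.92 and 0.96, and Zbbx, Ltc4s, Snord65, Mir1927 and Map2k3os for S100a8, between 0.90 and 0.92.

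**Figure D5:**
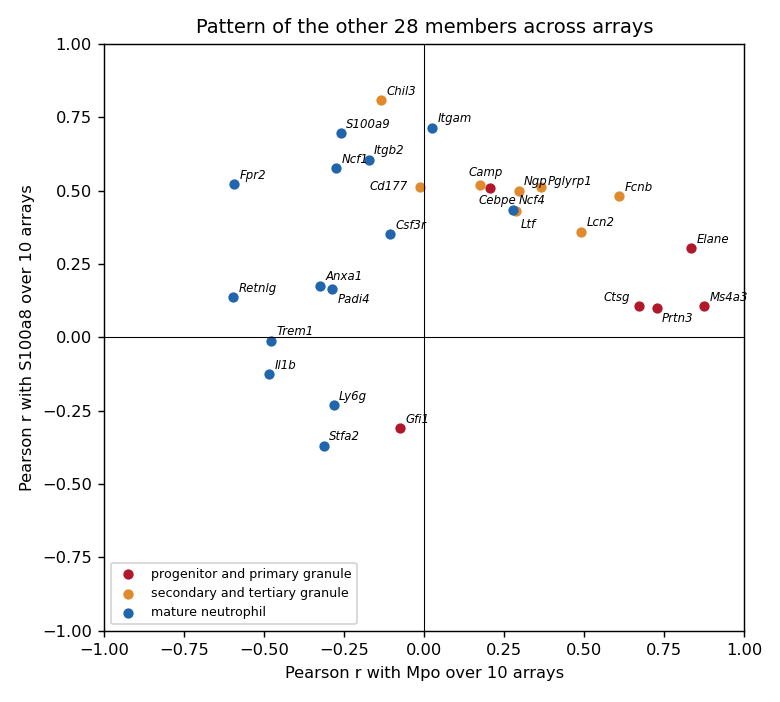
Pearson's r over the 10 arrays of each of the other 28 genes with Mpo (horizontal axis) and with S100a8 (vertical axis), coloured by class. Ms4a3, Elane, Prtn3 and Ctsg lie at the right, secondary granule genes above 0 on the vertical axis, and mature genes mostly at the left. Of the other early genes, Cebpe lies at 0.20 and Gfi1 at -0.08 on the horizontal axis.

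Other genes listed by role for the same stages had median differences nearer 0. Not all of them are particular to neutrophil cells, as with Cd34 and Nkg7 below, so these medians do not describe such cells alone. Of 20 further granulocyte-monocyte progenitor genes 14 were higher and 6 lower, with a median of 0.03. At an unadjusted p under 0.05 in limma 1 was higher and 3 were lower, against 2.98% and 3.79% of all genes. The higher one was Prss57, which encodes a further primary granule serine protease, at 0.32 ± 0.13 (SE; 3.51 ± 0.20 in controls and 3.83 ± 0.20 in mutants, SD, n = 5 each; limma adjusted p = 0.669). Cd34, a stem and progenitor marker that portal fibroblasts and endothelium also carry, lay at -0.78 ± 0.28 (SE; limma adjusted p = 0.616). Nkg7, a gene of cytotoxic lymphocytes too, lay at -0.62 ± 0.13 (SE; limma adjusted p = 0.289). Every Nkg7 value in mutants lay below every control, as in 0.766% of all genes. Among 16 further granule genes and 18 measured genes of mature neutrophils 0 had an unadjusted p under 0.05 in limma. In the first of these, Ceacam10 was at -0.65, Ltb4r1 at 0.38 and Orm1 at 0.33, and in the second, Clec4e was at 0.35, Cxcr2 at 0.28 and Il1r2 at 0.15. Clec4e and Il1r2 had means of 2.15 and 2.23, within the absent level, and Ceacam10 was above that level on 5 arrays.

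The signals that call for and hold neutrophils showed 12 of 16 higher, 6 of the 16 with means within the absent level. Cxcl12, the chemokine that retains neutrophils and their progenitors, stood at 9.34 ± 0.04 in controls and 8.84 ± 0.43 in mutants (SD, n = 5 each), and every mutant lay below every control, as in 0.766% of all genes (difference -0.50 ± 0.17, SE; limma adjusted p = 0.609). Cxcl2, a chemokine that attracts neutrophils, lay near the absent level, at 2.85 ± 0.20 and 3.18 ± 0.18, and the receptor gene Il17ra differed by 0.41. Among 13 inhibitors of neutrophil enzymes, Slpi, the secretory inhibitor of elastase and cathepsin G, was the only one past the adjusted threshold, higher by 2.35 ± 0.17 (SE; limma adjusted p = 0.000331). Of the other 12, 6 were higher and 6 lower, with Wfdc2 at -0.64 and A2m at 0.39.

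The tracts also held markers of other cells. The 10 monocyte genes had a median difference of 0.07, with F13a1 at 0.63 and Ms4a6c at 0.61, and 12 of 13 Kupffer cell and macrophage genes were higher, with a median of 0.16 and Clec4f at 0.67. The 10 erythroid genes were all higher, with a median of 0.45, and their mean was 7.02 on mutant replicate 5 against 3.73 to 5.04 on the other 9 arrays. The eosinophil, basophil and mast cell genes were within the absent level in 9 of 12. All 6 biliary genes and 9 of 11 portal fibroblast genes were lower, with medians of -0.75 and -0.78, while the 10 hepatocyte genes had a median of -0.03. Of the 10 lymphocyte genes 7 were lower, with a median of -0.32 and Cd3e at -0.59, and of the 5 megakaryocyte genes 3 were lower, with a median of -0.10. The 19 cell cycle genes had a median of -0.05. Their mean was 6.62 on mutant replicate 5, against 5.69 to 6.30 on the other 9 arrays. None of these cell type genes passed the adjusted threshold in limma. At an unadjusted p under 0.05, 2 of 10 monocyte, 2 of 13 macrophage and 0 of 10 erythroid genes were higher, against 2.98% of all genes, and 4 of 6 biliary and 7 of 11 portal fibroblast genes were lower, against 3.79%. The part of these cells in the early neutrophil difference was not tested.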

How the data were processed

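Laser-cut portal tracts gave 10 RNA samples, 5 per genotype, for single-colour arrays. The authors deposited log2 values, 1 per probe set and array. RMA and Partek 6.6 are named for them, per the submitters' processing notes. RMA compresses the folds of dim genes. Of 33649 probe sets 23521 have 1 symbol, 1814 several and 8314 none. The set with the highest mean was taken per gene, without a filter, and no pair of arrays was identical (0 pairs).

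The genotypes were set against each other in limma 3.58.1 under R 4.3.3 (two-sided lmFit and eBayes, no covariate), with Benjamini-Hochberg adjustment over 22180 genes at 0.05, and single genes by an exact permutation test over 252 splits. Correlations used 100000 permutations, two-sided, adjusted over all genes per anchor. Scripts were tested on simulated data.

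The genes, lists and tests were chosen with earlier results of these data known. Named are all measured members of the list, Jag1, Rfng, the 3 genes of the lowest unadjusted p in each other list (of some lists fewer are printed) and the 5 of the highest r per anchor; S100a8 and Mpo were anchors. Alternatives left out each array, added a replicate block or array weights, and changed the arrays, the normalization, the eBayes setting, the filter, the probe set rule or the place of Cebpe. The genome build of the array's annotation is not stated in these sources.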

Additional observations from a re-analysis of the deposited data

Results flagged for a closer look

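Among 68 groups of 5 values tested, 5 held an array far from the other 4 of its group, where chance gives about 1 in 20. Ctsg on Jag1+/-Rfng+/- replicate 3 was 7.54, with the other mutants between 6.03 and 6.30. The mean of the secondary and tertiary granule genes on replicate 2 was 6.98, with the others between 7.62 and 7.88. The other 3 lay on Jag1+/-Rfng+/- replicate 1. There Ncf1 was 5.38 (others 4.86 to 5.01), the mean of the mature neutrophil genes was 6.09 (others 5.32 to 5.45), and the early minus the late mean was -2.02 (others -0.87 to -0.58).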

How the results depend on the processing

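In limma 0 of the 30 genes passed the adjusted threshold in 18 alternatives, and 0 of the 26 tested did among genes above the median level, which leaves out Gfi1, Stfa2, Padi4 and Trem1. Prtn3 and Ctsg passed the looser threshold in 19 of 19, Mpo in 13, Elane in 12, and the late genes Lcn2 and Retnlg in 1 each. Leaving out 1 array gave 2 to 5 genes. Over all genes, the count past the adjusted threshold was 2, and 2 to 6 leaving out 1 array, 5 with array weights, 11 with eBayes trend and robust, 11 among the 11090 genes above the median level, 3 with quantile or cyclic loess normalization, and 0 with 3 against 3 arrays (1215 genes at an unadjusted p under 0.05). It is not known whether the replicate numbers of the titles pair the samples. Deviations of arrays with the same number correlated at -0.23 to 0.06, and 1 of 10 arrays correlated best with its own number. With 1 pair of arrays per number, these values cannot exclude a pairing. A replicate block gave 3 genes past the looser threshold, Mpo, Prtn3 and Ctsg.

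The mean difference of the early genes was 0.48 to 0.73 leaving out 1 array, and that of the secondary granule genes 0.05 to 0.41. The mature genes' mean difference, 0.05, turned to -0.10 among the 7 arrays with the shared number, -0.12 with 3 against 3 of them, -0.0268 with array weights, and ran from -0.0929 to 0.0993 leaving out 1 array, lower without control replicate 4 or Jag1+/-Rfng+/- replicate 1. The early minus late difference was 0.35 to 0.71 leaving out 1 array. Single late genes near 0 changed sign. With the shared number they were Chil3 (-0.20), Cd177 (-0.11), Ly6g (-0.38), Itgb2 (-0.21), Ncf1 (-0.0767) and Fpr2 (-0.16), and with 3 against 3 of these arrays Chil3 (-0.53), Cd177 (-0.10), Itgb2 (-0.21), Ncf1 (-0.10) and Fpr2 (-0.37). With array weights they were Chil3 (-0.0357), Itgb2 (-0.0264), Ncf1 (-0.0227) and Fpr2 (-0.13), with cyclic loess Camp (0.0031) and S100a8 (0.0219), and with quantile normalization Ly6g (-0.0024). Leaving out 1 array gave -0.31 to 0.19 for Camp, -0.14 to 0.41 for Chil3, -0.0015 to 0.67 for Fcnb, -0.0036 to 0.22 for Cd177, -0.0983 to 0.0730 for S100a8, -0.17 to 0.0280 for S100a9, -0.35 to 0.41 for Ly6g, -0.20 to 0.0046 for Anxa1, -0.0949 to 0.18 for Itgb2, -0.0819 to 0.13 for Ncf1, -0.21 to 0.22 for Fpr2, -0.19 to 0.0020 for Trem1 and -0.0862 to 0.41 for Il1b. The cause of these changes was not tested.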
